A study of Homo sapiens with 12 samples.

Results

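Respiratory complexes I, III, IV and V are built from subunits of the nuclear genome and a few of mitochondrial DNA, and the nuclear-encoded ones are described here. They were taken by gene symbol, as the rows beginning NDUFA, NDUFB, NDUFC, NDUFS or NDUFV (without the NDUFAF assembly factors), UQCR, COX4 to COX8 (without COX4NB) and ATP5 (without ATP5SL and ATP5S). This gave 86 of the 23686 rows of the expression table, 41 for complex I, 10 for complex III, 17 for complex IV and 18 for complex V. Of these, 20 carry an older symbol in the table, among them all ATP5 rows, and NDUFA4 is now named COXFA4 because its protein is found with complex IV.

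RNA was sequenced from 2 human cancer cell lines, MDA-MB-231 (breast) and HCT116 (colon), and is given as TPM, a transcript level scaled to gene length and to a fixed library total. Each line had 3 groups of 2 libraries, 12 libraries in all: IgG, a control antibody without oxidant; IgG+H2O2, the control antibody with hydrogen peroxide at 100 µM for 8 h; and anti-Hsp60N+H2O2, an antibody named after the mitochondrial chaperonin Hsp60 with the same H2O2. The labels name no genetic change, and no group had anti-Hsp60N without H2O2. The lines were grown in different media, so line and medium cannot be told apart. Whether the 2 libraries of a group are separate cultures is not stated in the labels, and p-values here measure only the spread between libraries, which may be technical.

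Complex I takes electrons from NADH through a peripheral arm of flavin and iron-sulfur core subunits, and its membrane arm pumps protons. Complex III passes electrons from ubiquinol to cytochrome c, complex IV passes them to oxygen, and complex V, the ATP synthase, turns a ring of c subunits and makes ATP in its F1 head. Electron leak from complexes I and III is a known source of reactive oxygen species, and in many cells the nuclear subunit genes are driven by factors such as NRF1 and the ETS protein GABP.

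The sequences upstream of 6 members are printed as examples with and without the motif letters, picked with the values and matches known. With H2O2 in HCT116, NDUFB10, ATP5G1, NDUFS3, UQCRC1 and UQCRFS1 were lower and COX7A2L was higher, and the calls of UQCRC1, UQCRFS1 and COX7A2L were lost without single libraries, as given with their values. Each run is the 250 bases before the gene start in RefSeq on build GRCh38.p14, 5′ to 3′ on the gene's strand, and is not a measurement of these libraries. The positions are chr16:1959288-1959537 (plus strand) for NDUFB10, chr17:48892537-48892786 (plus) for ATP5G1, now ATP5MC1, chr11:47578824-47579073 (plus) for NDUFS3, chr3:48609647-48609896 (minus) for UQCRC1, chr19:29213152-29213401 (minus) for UQCRFS1 and chr2:42361218-42361467 (minus) for COX7A2L. Capitals mark a motif of NRF1 (10 bases with 1 free position), CCGGAAG (an ETS motif), AAGATGGCG (a YY1 motif) and CCAAT, on either strand.
NDUFB10: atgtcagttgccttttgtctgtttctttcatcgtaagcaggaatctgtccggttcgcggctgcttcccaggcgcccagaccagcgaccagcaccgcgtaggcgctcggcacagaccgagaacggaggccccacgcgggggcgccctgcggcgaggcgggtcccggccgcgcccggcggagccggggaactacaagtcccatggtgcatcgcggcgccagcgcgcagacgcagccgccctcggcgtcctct
ATP5G1: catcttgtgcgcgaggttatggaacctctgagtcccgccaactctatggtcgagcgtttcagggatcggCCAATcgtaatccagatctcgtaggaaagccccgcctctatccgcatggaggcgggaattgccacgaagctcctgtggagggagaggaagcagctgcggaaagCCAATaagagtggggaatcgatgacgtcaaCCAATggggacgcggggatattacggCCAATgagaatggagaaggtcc
NDUFS3: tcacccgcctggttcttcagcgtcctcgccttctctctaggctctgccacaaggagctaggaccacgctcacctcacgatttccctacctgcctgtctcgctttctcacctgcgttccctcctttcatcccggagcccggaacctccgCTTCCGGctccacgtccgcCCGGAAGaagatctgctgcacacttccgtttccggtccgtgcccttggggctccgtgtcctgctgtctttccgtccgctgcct
UQCRC1: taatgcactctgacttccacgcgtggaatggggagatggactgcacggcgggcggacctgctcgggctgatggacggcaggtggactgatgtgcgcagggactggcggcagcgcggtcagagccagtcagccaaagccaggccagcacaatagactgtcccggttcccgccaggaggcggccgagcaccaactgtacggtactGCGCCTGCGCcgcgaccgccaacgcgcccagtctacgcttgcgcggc
UQCRFS1: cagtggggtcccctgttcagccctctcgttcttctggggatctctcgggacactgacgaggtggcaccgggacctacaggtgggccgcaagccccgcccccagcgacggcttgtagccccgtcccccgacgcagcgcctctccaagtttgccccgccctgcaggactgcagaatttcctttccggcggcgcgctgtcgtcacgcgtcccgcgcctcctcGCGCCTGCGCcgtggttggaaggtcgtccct
COX7A2L: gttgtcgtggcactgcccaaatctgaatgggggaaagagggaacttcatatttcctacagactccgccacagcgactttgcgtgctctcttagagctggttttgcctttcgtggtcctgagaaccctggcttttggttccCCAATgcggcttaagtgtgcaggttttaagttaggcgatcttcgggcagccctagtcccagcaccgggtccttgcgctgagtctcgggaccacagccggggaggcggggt
UQCRC1 and UQCRFS1 each hold the NRF1 letters once, NDUFS3 holds the ETS letters at 2 places, ATP5G1 holds CCAAT 4 times and COX7A2L once. None of the marked letters occur in this window of NDUFB10. The windows of UQCR10, NDUFA8 and NDUFV2, which are not printed and were lower in every setting tried, do not hold the NRF1 letters.

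RefSeq promoters were matched for 68 of the 86 members. The NRF1 letters occurred in 12 of these 68 (17.6%) and in 5.07% of all 35116 promoters of the same length, and the ETS letters in 14 (20.6%) against 8.52%. CCAAT was in 32.4% of member promoters and in 11240 of all promoters, a like share, the Sp letters GGGCGGG (not capitalised above) in 25.0% against 31.5%, and the YY1 letters in 1.47% against 0.652%. The ATF4 letters TGATGNAAT were in 0 of the 68 and in 0.888% of all promoters. Among members lower with H2O2 in HCT116, 5 of 18 promoters (27.8%) held the NRF1 letters, and among members tested and not passing there, 6 of 46 (13.0%). The ETS letters stood the other way round, in 3 of 18 (16.7%) and 11 of 46 (23.9%). These are counts of letters and show no binding. The 5 lower members with NRF1 letters were ATP5I, NDUFA3, NDUFB4, UQCRC1 and UQCRFS1, and each lost its call when some single library was left out. The NRF1 letters were absent from ATP5G1, NDUFA8, NDUFB10, NDUFS3, NDUFV2 and UQCR10, which passed in every setting tried.

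Most members were abundant. In every library 74 of the 86 were at 10 TPM or more, between 18.12 TPM (NDUFA10) and 1664.47 TPM (ATP5E), and together the 86 rows held 2.07% to 2.34% of a library's TPM as group means. Within a complex the levels were uneven. In HCT116 under IgG, complex I rows of at least 10 TPM ranged 20.5-fold, from NDUFC2-KCTD14 at 30.1 TPM to NDUFS5 at 617 TPM, with a median of 154 TPM. Complex III ranged from UQCRHL at 77.4 TPM to UQCRH at 838 TPM, complex IV from COX7A2L at 111 TPM to COX4I1 at 1059 TPM, and complex V from ATP5L at 147 TPM to ATP5B at 1245 TPM. UQCRH and UQCRHL, the hinge protein of complex III and its near-identical copy, may share reads, so how the 2 rows divide is uncertain.

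The other 12 rows never reached 10 TPM, and they hold most of the tissue-restricted isoforms and the entries that are no ordinary subunit gene. COX4I2, COX6A2 (the muscle form of COX6A) and the pseudogene ATP5EP2 were listed at 0 in all 12 libraries. COX7A1, the heart and muscle form of COX7A, reached at most 0.34 TPM, COX8C 0.48 TPM, COX6B2 1.81 TPM, the g-like ATP5L2 0.35 TPM and the pseudogene UQCRBP1 1.64 TPM. The antisense RNA NDUFB2-AS1 lay between 0.66 and 1.74 TPM, and no source used here states the strand setting of the libraries, so its reads cannot be told from those of NDUFB2. The read-through rows ATP5J2-PTCD1 (0.54 to 6.94 TPM) and NDUFC2-KCTD14 (21.22 to 44.40 TPM) overlap ATP5J2 and NDUFC2 and are uncertain for the same reason. COX7B2 was between 2.03 and 5.48 TPM in the 6 MDA-MB-231 libraries and listed at 0 in the 6 HCT116 libraries. The ubiquitous forms COX4I1, COX6A1, COX6B1, COX7A2, COX7B and COX8A were all above 250 TPM in every library.

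For the tests, 79 members had at least 1 TPM in at least 2 libraries (41 of complex I, 9 of III, 13 of IV, 16 of V), among 13956 genes tested. Differences are log2 fold changes of TPM + 1 from limma, with Benjamini-Hochberg adjusted p over all genes tested and a threshold of 0.05. Across genes, log2 values of the 6 pairs within a group correlated at 0.994 to 0.996, and those of the 36 pairs between lines at 0.787 to 0.796. EPCAM, an epithelial marker, was 332 to 370 TPM in HCT116 and 22.6 to 25.3 TPM in MDA-MB-231. VIM, a mesenchymal marker, was 5.06 to 5.81 TPM and 2233 to 2551 TPM. Of 8 mesenchymal markers 6 were tested, and all 6 were lower in HCT116 under IgG, where 37.3% of all genes tested were. TGFBI among them passed the filter only through MDA-MB-231 libraries. CDH2 and SPARC were not tested and reached at most 0.51 and 0.81 TPM in either line. CAV1 was high in both lines, at 287 to 318 TPM in HCT116 and 357 to 498.5 TPM in MDA-MB-231. Of 10 epithelial markers 9 were higher in HCT116 under IgG and 1 lower, where 45.5% of all genes tested were higher. The lower 1 was CLDN4, at 70.5 to 94.2 TPM in HCT116 and 105 to 122 TPM in MDA-MB-231. KRT8, also epithelial, was still 720 to 813 TPM in MDA-MB-231. Of 5 colon markers CDX2 was 12.8 to 17.2 TPM in HCT116 while CDX1 and CEACAM5 were listed at 0 and VIL1 and LGALS4 reached at most 0.27 TPM, so the colon label rests on CDX2 among these markers. PTPRC, a pan-leukocyte marker, reached at most 0.08 TPM, while CD68 was 183 to 204 TPM in MDA-MB-231 and 20.3 to 25.3 TPM in HCT116. Of the fibroblast markers DCN was listed at 0, but COL1A1 was 3.88 to 8.09 TPM over the 12 libraries. In MDA-MB-231 PDGFRB was 2.05 to 2.83 TPM and COL1A2 0.98 to 1.77 TPM. With H2O2 in HCT116, 3 of 10 epithelial markers were higher and 2 lower, AXL of 6 mesenchymal markers was higher, and 0 of the 5 tested immune, endothelial and fibroblast markers and of the 1 colon marker passed limma (0 at an unadjusted p under 0.05). Their part in the results below was not tested. In bulk RNA, fewer cells and less RNA per cell cannot be told apart.

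In HCT116, H2O2 was accompanied by lower RNA of subunits of complexes I, III and V, while complex IV moved little. With IgG+H2O2 against IgG, 22 members fell and 2 rose of 79 (24 called, 30.4%), where 32.9% of all genes tested passed (17.5% lower, 15.4% higher). The share of members called was thus near the background, and the direction was uneven, with 27.8% of members lower and 2.53% higher. NDUFA4L2, among those that rose, passed the filter on low values only through treated HCT116 libraries, so its call is no support for a rise. The median member changed by -0.11, the median gene by -0.01 and the median gene with a mean of at least 60 TPM by -0.085. Among the 2885 genes with a mean of at least 60 TPM, a floor chosen after the values were seen and reached by 69 members, 32.3% passed as lower and 14.4% as higher, so the share of members lower was not above that of other abundant genes. The size was modest: the summed TPM of all members was 22874 ± 278 under IgG and 21236 ± 414 under IgG+H2O2 (SD, n = 2), a change of -7.16%.

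**Figure D1:**
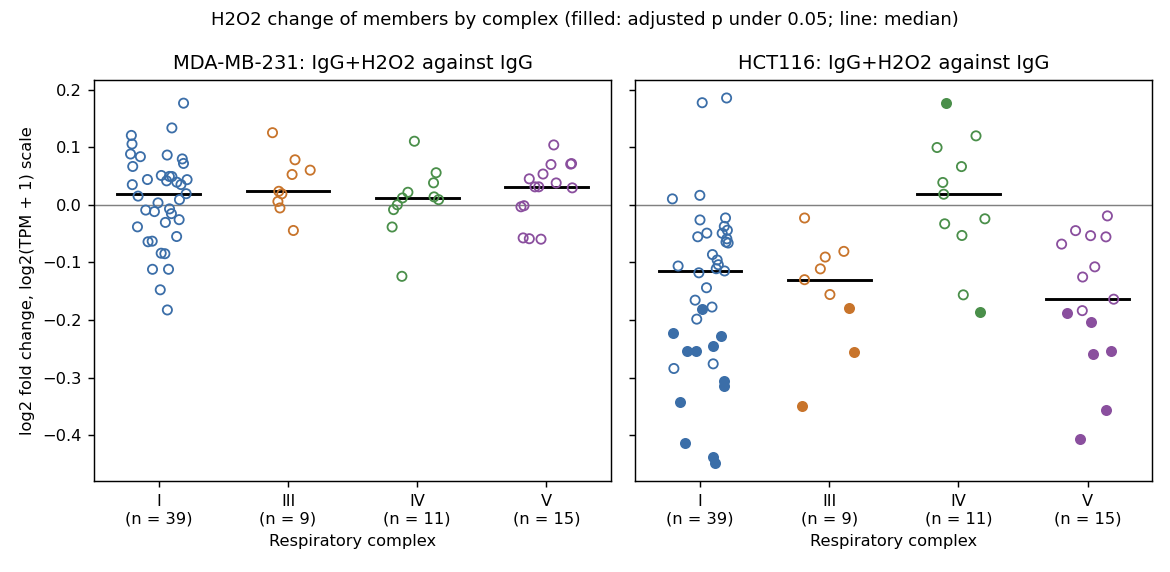
Change with H2O2 (log2 scale of TPM + 1, y axis) of the 74 members of at least 10 TPM, by complex (x axis), in MDA-MB-231 (left) and HCT116 (right), with filled points for an adjusted p under 0.05 and a line at each median. In HCT116 the points of complexes I, III and V lie mostly below 0 and reach -0.45 (NDUFA3), those of complex IV lie on both sides of 0, and in MDA-MB-231 no point is filled.

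By complex, 12 of 41 complex I rows were lower and 1 higher (NDUFA4L2), 3 of 9 complex III rows were lower, 1 of 13 complex IV rows was lower and 1 higher, and 6 of 16 complex V rows were lower. The medians were -0.11 for complex I, -0.13 for III, 0.00 for IV and -0.17 for V. Summed TPM changed by -9.76% for complex I, -7.66% for III, -0.174% for IV and -9.72% for V. For complex V the libraries stood at 7268 and 7189 TPM under IgG and at 6523 and 6529 TPM under IgG+H2O2. All 9 tested complex III rows and all 16 complex V rows had a negative fold change, against 35 of 41 in complex I and 6 of 13 in complex IV. So had 7215 of all 13956 genes tested, and 1918 of the 2885 genes with a mean of at least 60 TPM. A difference between complexes was not tested.

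**Figure D2:**
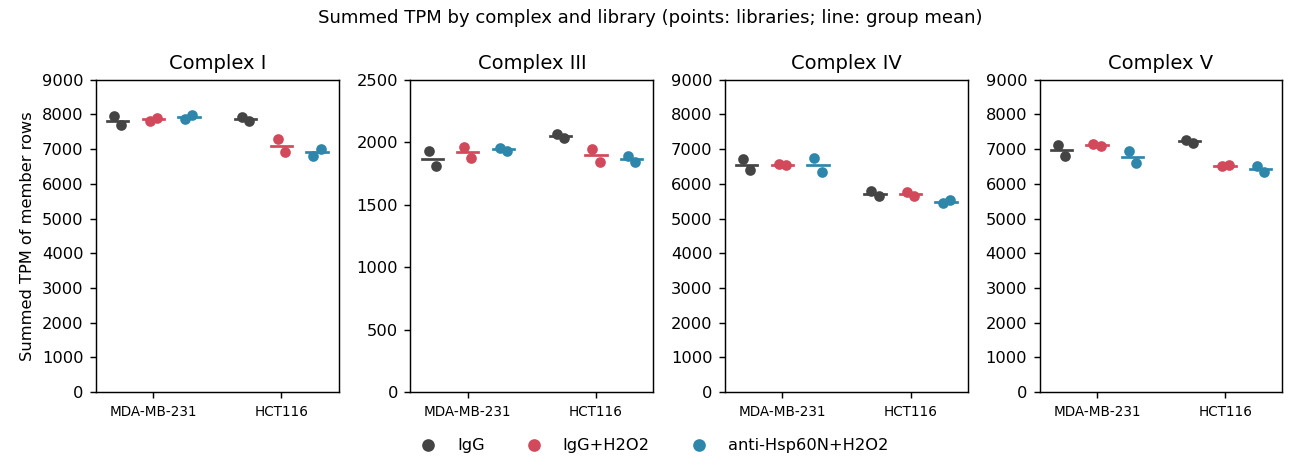
Summed TPM (y axis, from 0, with its own scale for complex III) of the member rows of each complex in the 12 libraries (points, with a line at the group mean), by cell line and treatment. In HCT116 the treated libraries of complexes I, III and V lie below both IgG libraries, complex IV under IgG+H2O2 does not, and in MDA-MB-231 the treatments overlap or lie close together.

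The count rests on a few libraries more than on others. Without the second IgG+H2O2 library of HCT116, 12 members passed instead of 24, and with HCT116 fitted alone, 12 passed. Without any other single library the count was 18 to 27. Quantile normalization left 13 lower and 4 higher. Members that passed in every setting tried included NDUFB10, NDUFS3, NDUFV2 and NDUFA8 of complex I, UQCR10 of complex III and ATP5G1 of complex V.

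Of the 7 nuclear core subunits of complex I, which hold the flavin and iron-sulfur clusters, 3 passed as lower, and the median of the 7 was -0.25. Of all genes tested 17.5% were lower, and of those with a mean of at least 60 TPM 32.3%. NDUFS3 was 156 and 161 TPM under IgG, 134 and 132 TPM under IgG+H2O2, and 129 and 130 TPM (129.54) with the antibody. The 4 treated libraries all lay below both IgG libraries, with a change of -0.25 (SE 0.052, limma adjusted p = 0.00425). Such separation was common with 2 libraries a group. With IgG+H2O2 against IgG in HCT116, 33.6% of all genes tested lay wholly below and 29.1% wholly above. Of 79 members, 38 lay below and 3 above. With anti-Hsp60N+H2O2 against IgG, 34% of genes lay wholly below. Separation given for members below is to be read against these shares. NDUFV2 changed by -0.22 (SE 0.046, limma adjusted p = 0.00434).

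Among the 34 complex I rows outside the core, 9 were lower and 1 higher. Without NDUFA4, NDUFA4L2, NDUFB2-AS1 and NDUFC2-KCTD14, which are no accessory subunits of complex I, 8 of 30 were lower and 0 higher. The shares lower were 17.5% of all genes tested and 32.3% of those with a mean of at least 60 TPM. Accessory subunits surround the core and are needed for its assembly and stability. NDUFB10, in the membrane arm, had the clearest difference: 488 and 476 TPM under IgG, 369 and 342 TPM under IgG+H2O2, and 339 and 344 TPM with anti-Hsp60N+H2O2. Treated and untreated libraries did not overlap, where 33.6% of all genes tested lay wholly below with IgG+H2O2. The change was -0.44 (SE 0.0528, limma adjusted p = 0.00019). NDUFA8, a twin CX9C accessory protein, changed by -0.24 (SE 0.0468, limma adjusted p = 0.00288).

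NDUFA3, a small membrane-arm subunit, had the lowest fold change, but its IgG libraries differed, at 264 and 334 TPM against 204 and 231 TPM under IgG+H2O2. Its change of -0.45 (SE 0.111, limma adjusted p = 0.0111) became -0.28 (adjusted p = 0.0866) without the second IgG library and -0.36 (adjusted p = 0.0838) without the first IgG+H2O2 library. NDUFA4L2, a relative of NDUFA4 known as a target of hypoxia-inducible factor, was the complex I row that rose: 0.77 and 0.64 TPM under IgG and 1.66 and 1.83 TPM under IgG+H2O2. It changed by 0.69 (SE 0.152, limma adjusted p = 0.0064), and with a pseudocount of 0.1 the change was 1.20 (adjusted p = 0.085). It passed the filter only through treated HCT116 libraries, so the call is no support for a rise. NDUFA4 itself changed by 0.02 (limma adjusted p = 0.849).

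**Figure D3:**
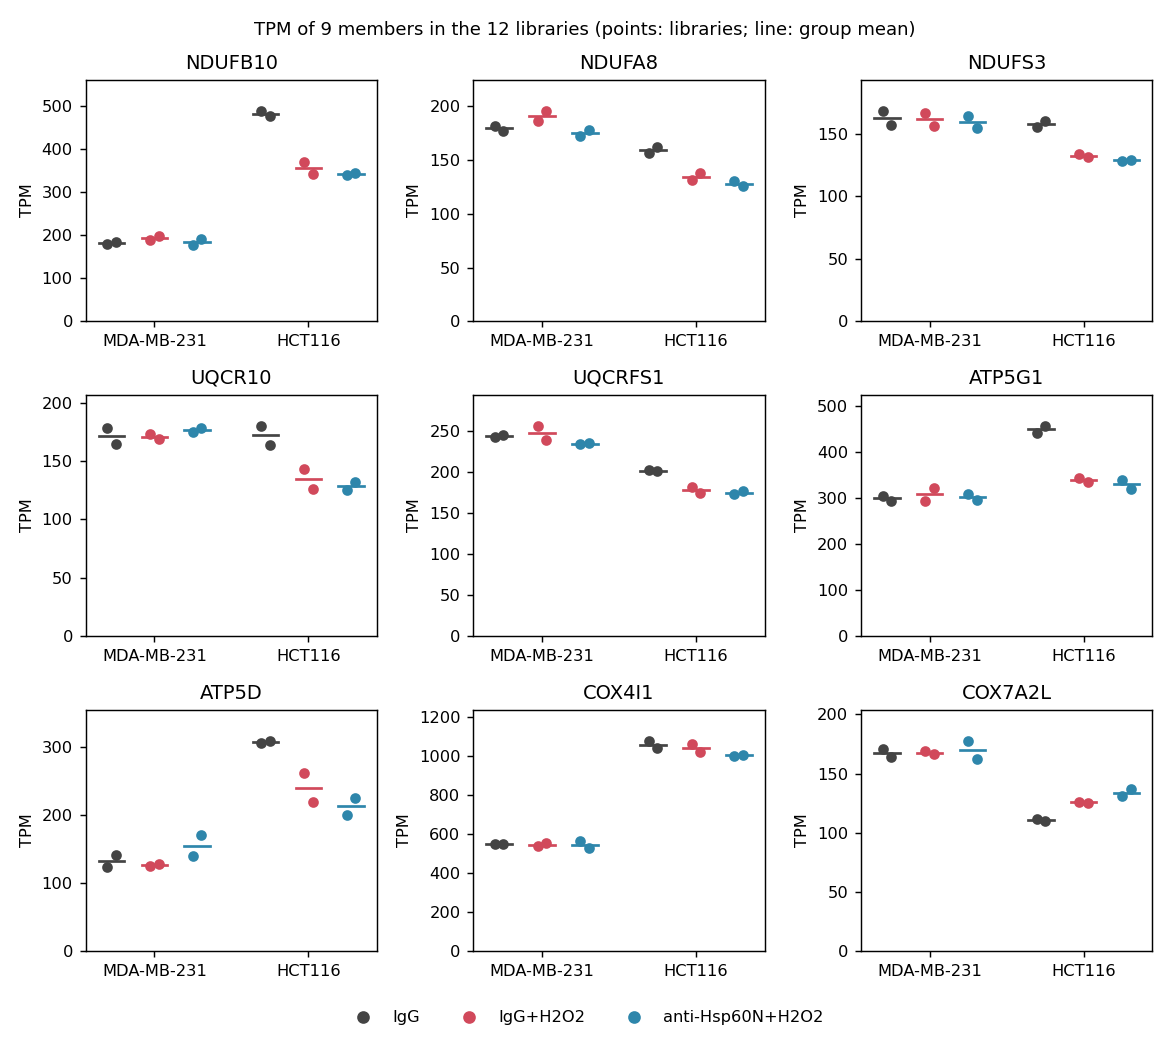
TPM (y axis, from 0, with its own scale in each panel) of 9 members in the 12 libraries (points, with a line at the group mean), by cell line and treatment. NDUFB10, NDUFA8, NDUFS3, UQCR10 and ATP5G1 are lower in the treated HCT116 libraries than in both IgG libraries, COX7A2L is higher, COX4I1 differs between the lines more than between treatments, and MDA-MB-231 stays level in most panels.

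In complex III, UQCR10, a small subunit, was 180 and 164 TPM under IgG, 143 and 126 TPM under IgG+H2O2, and 125 and 132 TPM with the antibody. The treated libraries lay below both IgG libraries, with a change of -0.35 (SE 0.0683, limma adjusted p = 0.00329). UQCRC1, a core protein facing the matrix, was 217 and 244 TPM under IgG and 193 and 191 TPM under IgG+H2O2, a change of -0.26 (SE 0.0612, limma adjusted p = 0.00927). Without the second IgG library its adjusted p was 0.0658, and without the second IgG+H2O2 library 0.0503. UQCRFS1, the Rieske iron-sulfur protein, was 203 and 201 TPM against 182 and 175 TPM, a change of -0.18 (limma adjusted p = 0.0105, and 0.0773 without the second IgG+H2O2 library). The hinge protein UQCRH changed by -0.02 (limma adjusted p = 0.812) and UQCRHL by -0.11 (limma adjusted p = 0.534).

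In complex IV, COX6B1, on the cytochrome c side, was the row that fell: 533 and 523 TPM under IgG and 470 and 458 TPM under IgG+H2O2, a change of -0.19 (SE 0.0607, limma adjusted p = 0.0372). Its groups did not overlap, but it lost the call without any 1 of 6 libraries (all 4 of the HCT116 IgG and IgG+H2O2 libraries and both MDA-MB-231 IgG+H2O2 libraries), with adjusted p from 0.0501 to 0.156. COX7A2L, a COX7A relative that takes part in joining complexes III and IV into supercomplexes, rose: 112 and 110 TPM (110.32) under IgG, 126 and 125 TPM under IgG+H2O2, and 131 and 137 TPM with anti-Hsp60N+H2O2. The change was 0.18 (SE 0.0499, limma adjusted p = 0.0197), and the adjusted p was 0.0856 without the first IgG+H2O2 library, 0.0669 without the second and 0.0719 without the second IgG library.

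The isoform pairs of complex IV gave little else. COX4I1, the housekeeping form of COX4, changed by -0.02 (95% interval -0.12 to 0.07), COX6A1 by 0.02, COX7A2 by 0.10, COX7B by -0.16, COX8A by 0.12 and the low COX6B2 by -0.28, none past the threshold (limma adjusted p from 0.169 to 0.844). COX7B2 was listed at 0 in both groups.

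In complex V, H2O2 was accompanied by unequal changes of the 3 genes for the c subunit, which encode the same mature protein of the ring behind different import signals. ATP5G1 was 442 and 455 TPM under IgG, 342 and 334 TPM under IgG+H2O2, and 339 and 320.0 TPM with anti-Hsp60N+H2O2. All 4 treated libraries lay below both IgG libraries, and the change was -0.41 (SE 0.0534, limma adjusted p = 0.000324). ATP5G3 changed by -0.26 (SE 0.0668, limma adjusted p = 0.0133) and ATP5G2 by -0.05 (limma adjusted p = 0.436). The share of ATP5G1 in the summed c subunit TPM was 48.5% ± 1.23 under IgG, 43.7% ± 0.802 under IgG+H2O2 and 43.6% ± 0.496 with the antibody (SD, n = 2), and the sum was 925 ± 43.2, 773 ± 0.0141 and 755 ± 22.1 TPM. ATP5G3 lost its call without the first or second IgG+H2O2 library or the second IgG library, with adjusted p up to 0.096.

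In the F1 head, 2 of 5 subunits fell. For this and the other parts of complex V, the share lower was 17.5% of all genes tested. It was 32.3% of those with a mean of at least 60 TPM. ATP5D, the delta subunit, was 306 and 309 TPM under IgG but 262 and 219 TPM under IgG+H2O2. Its change of -0.36 (SE 0.108, limma adjusted p = 0.0273) became -0.23 (adjusted p = 0.205) without the second IgG+H2O2 library, and its adjusted p was 0.0797 without the first IgG library and 0.0967 without the second. ATP5A1, the alpha subunit, changed by -0.20 (limma adjusted p = 0.0153), a call lost without the first IgG+H2O2 library (0.111) or the second IgG library, under quantile normalization and with HCT116 fitted alone. Of the membrane accessory subunits ATP5I, ATP5J2 and ATP5L, the first 2 fell (-0.19 and -0.25, limma adjusted p = 0.0175 and 0.0285). Neither passed under median-of-ratios scaling, under quantile normalization, without the first IgG library or without the second IgG+H2O2 library, with adjusted p up to 0.0983 for ATP5I and 0.148 for ATP5J2 with 1 library left out. Of the 4 peripheral stalk subunits, which hold the head still against the ring, none passed (range -0.18 to -0.02).

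In MDA-MB-231, no change of the members with H2O2 was detectable. Of 79 members 0 passed the limma test, 3 at an unadjusted p under 0.05, where 2.66% of all genes tested passed (1.3% higher, 1.36% lower). The median member changed by 0.02, and the 95% intervals of the 74 members of at least 10 TPM all lay between -0.389 and 0.395. NDUFB10 was 180 and 185 TPM (179.7 and 184.95) under IgG and 188 and 199 TPM under IgG+H2O2, and ATP5G1 was 305 and 293 TPM against 293 and 321 TPM. ATP5G1 overlapped between the groups, and both NDUFB10 values with H2O2 lay above both IgG values, as in 30.4% of all genes tested. The members of smallest p in complexes III, IV and V were UQCRH at 0.06 (limma adjusted p = 0.658), COX8A at -0.12 (0.469) and the read-through row ATP5J2-PTCD1 at 0.80 (0.277). Summed TPM changed by 0.486% for complex I, 2.65% for III, -0.0293% for IV and 2.15% for V.

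The isoform pairs in MDA-MB-231 were level as well. With H2O2, COX4I1 changed by -0.01, COX6A1 by 0.01, COX6B1 by 0.01, COX7A2 by 0.02, COX7A2L by 0.00, COX7B by 0.11, NDUFA4 by 0.05, UQCRHL by 0.13, ATP5G1 by 0.04, ATP5G2 by -0.06 and ATP5G3 by 0.07, with limma adjusted p from 0.553 to 1. The low COX6B2 and COX7B2 each changed by -0.20 (limma adjusted p = 0.647 and 0.766). NDUFA4L2 was listed at 0 in 3 of these 4 libraries.

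The H2O2 change was lower in HCT116 than in MDA-MB-231 for 8 of 79 members and higher for 0, by the interaction of line and H2O2 in limma. At an unadjusted p under 0.05 were 31 of the 79 members and 4507 of the 13956 genes tested. The 8 are 10.1% of members, where 9.72% of all genes tested were lower, 7.65% higher and 17.4% passed in either direction. Among genes with a mean of at least 60 TPM, 19.9% were lower and 8.53% higher. The share of members lower was thus near that of all genes and below that of other abundant genes. The 8 were NDUFB10 at -0.52 (SE 0.0747, limma adjusted p = 0.00148), ATP5G1 at -0.45 (SE 0.0755, limma adjusted p = 0.00373), NDUFA8 at -0.33 (SE 0.0662, limma adjusted p = 0.00782), UQCR10 at -0.34 (limma adjusted p = 0.0346), ATP5G3 at -0.33 (0.0364), NDUFA6, NDUFV2 and NDUFS3. NDUFA6 passed in neither line alone, with H2O2 changes of -0.11 in HCT116 (limma adjusted p = 0.128) and 0.18 in MDA-MB-231 (limma adjusted p = 0.109). NDUFB10, ATP5G1 and NDUFA8 passed in every setting tried. The count was 5 with no filter on low values, 3 under median-of-ratios scaling, 5 (3 lower, 2 higher) under quantile normalization, 4 without the second MDA-MB-231 IgG library or the first HCT116 IgG+H2O2 library, 5 without either MDA-MB-231 IgG+H2O2 library, and 13 without the second HCT116 IgG library. No complex IV member passed. The smallest p there was COX7A2L at 0.18 (limma adjusted p = 0.11), which passed under quantile normalization at 0.26 (0.0275), and ATP5G2 differed by 0.01 (95% interval -0.14 to 0.15).

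The antibody was compared with IgG under the same H2O2. In both lines 0 of 79 members passed limma, with 13 at an unadjusted p under 0.05 in MDA-MB-231 and 5 in HCT116, where 0.0143% (all higher) and 0.0215% (0.00717% higher, 0.0143% lower) of all genes tested passed. The median member changed by 0.00 and -0.03 (-0.00303 and -0.0322 before rounding). For members of at least 10 TPM the 95% intervals lay between -0.519 and 0.515 in MDA-MB-231 and between -0.41 and 0.359 in HCT116. The members of smallest p by complex in MDA-MB-231 were NDUFS1, the largest core subunit of complex I, at -0.22 (limma adjusted p = 0.242), UQCRFS1 at -0.07 (0.484), COX7A2 at -0.17 (0.337) and ATP5E at -0.19 (0.244). In HCT116 they were NDUFB2-AS1 at -0.37, UQCR11 at -0.19, COX8A at -0.17 and ATP5J2-PTCD1 at 0.79, each with a limma adjusted p of 0.92. ATP5G1 changed by -0.02 and -0.04, COX7A2L by 0.01 and 0.09 and COX4I1 by -0.00 and -0.05, in MDA-MB-231 and HCT116. The other isoform members with more than 10 TPM changed by -0.12 to 0.09, apart from COX7A2 and COX8A above.

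The antibody change did not differ detectably between the lines for any member. In limma 0 of 79 passed, with 7 at an unadjusted p under 0.05, where 0.0287% of all genes passed. The smallest p was NDUFB2-AS1 at -0.71 (limma adjusted p = 0.348) in complex I, UQCR11 at -0.24 (0.439), COX8A at -0.26 (0.39) and ATP5D at -0.45 (0.354).

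Set against IgG without H2O2, the anti-Hsp60N+H2O2 libraries gave their own values for the same members. This comparison shares the IgG libraries with the H2O2 comparison, and the antibody libraries with the one above, so its calls are no independent repeat. In HCT116, 26 members were lower and 3 higher of 79 (36.7%), where 34.3% of all genes tested passed (17.5% lower, 16.8% higher). Among genes with a mean of at least 60 TPM, 32.1% were lower and 15.8% higher. The share of members lower, 32.9%, was thus near that of other abundant genes. Complex I had 14 lower and 2 higher, III 4 lower, IV 1 lower and 1 higher, and V 7 lower. The higher rows of complex I include NDUFA4L2, which passed the filter only through treated HCT116 libraries, so its call is no support for a rise. The median member changed by -0.14, and summed TPM by -12.3% for complex I, -9.19% for III, -4.11% for IV and -11.2% for V. Of the 7 complex I core subunits, 6 passed as lower. The count was 16 without the second anti-Hsp60N+H2O2 library, 17 with HCT116 fitted alone and 19 under quantile normalization, and 12 members passed in every setting tried.

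Here ATP5D had the lowest value, -0.53 (SE 0.108, limma adjusted p = 0.00387), from 306 and 309 TPM under IgG to 200.2 and 226 TPM with the antibody and H2O2. NDUFB10 changed by -0.50 (SE 0.0528, limma adjusted p = 7.57e-05), NDUFA3 by -0.50 (limma adjusted p = 0.006, and 0.0581 without the second anti-Hsp60N+H2O2 library), UQCR10 by -0.42 (limma adjusted p = 0.00114) and ATP5G1 by -0.44 (limma adjusted p = 0.000171). COX7A2L rose by 0.27 (SE 0.0499, limma adjusted p = 0.00236), a call kept without each library in turn. NDUFS4, an accessory subunit of the peripheral arm, was 139 and 132 TPM under IgG and 165 and 150.2 TPM with the antibody and H2O2, a change of 0.22 (limma adjusted p = 0.0386) that missed the threshold without any 1 of 8 libraries, with adjusted p up to 0.238. UQCR11 at -0.27 (limma adjusted p = 0.0342), COX6B1 at -0.19 (0.0303) and NDUFA4L2 at 0.59 (0.0125) lost their calls as well. UQCR11 was -0.16 (adjusted p = 0.257) without the first anti-Hsp60N+H2O2 library, and COX6B1 was -0.14 (0.204) and NDUFA4L2 0.35 (0.111) without the second.

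In MDA-MB-231 against IgG, 0 of 79 members passed limma (10 at an unadjusted p under 0.05), where 3.4% of all genes passed (1.5% higher, 1.9% lower). The members of smallest p were NDUFS1 at -0.17 (limma adjusted p = 0.107), UQCRH at 0.10 (0.367), COX5B at 0.20 (0.252) and ATP5J2-PTCD1 at 1.43 (0.0506). ATP5J2-PTCD1 was 1.95 and 1.26 TPM under IgG, 3.05 and 3.98 TPM under IgG+H2O2, and 5.08 and 6.94 TPM with anti-Hsp60N+H2O2, with no overlap between the 3 groups. In this line 24.3% of all genes tested lay wholly above IgG with anti-Hsp60N+H2O2. The adjusted p of ATP5J2-PTCD1 was 0.0463 under median-of-ratios scaling, 0.0411 under quantile normalization, and 0.013 and 0.0131 without the first or the second HCT116 IgG library. ATP5J2, which this read-through row overlaps, was 930 and 871 TPM (929.58 and 871.2) under IgG and 939.7 and 929 TPM with the antibody and H2O2.

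The lines themselves differed far more than the treatments did, subunit by subunit and in both directions. Under IgG, 30 members were higher and 30 lower in HCT116 than in MDA-MB-231 of 79 (75.9%), where 82.8% of all genes tested passed (45.5% higher, 37.3% lower). These counts include NDUFA4L2 and COX6B2, which passed the filter only through HCT116 libraries, and COX7B2, which passed it only through MDA-MB-231 libraries. The calls of these low rows are therefore no support for a line difference. The median member differed by 0.00 and the median gene by 0.11, and median-of-ratios scaling brought the median gene to -0.01 and the median member to -0.13, with 24 members higher and 33 lower. By complex, 15 were higher and 16 lower in complex I, 3 and 2 in III, 3 and 8 in IV, and 9 and 4 in V. Summed TPM of all members was 22874 ± 278 in HCT116 and 23211 ± 695 in MDA-MB-231, so the sums were closer than most single subunits.

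**Figure D4:**
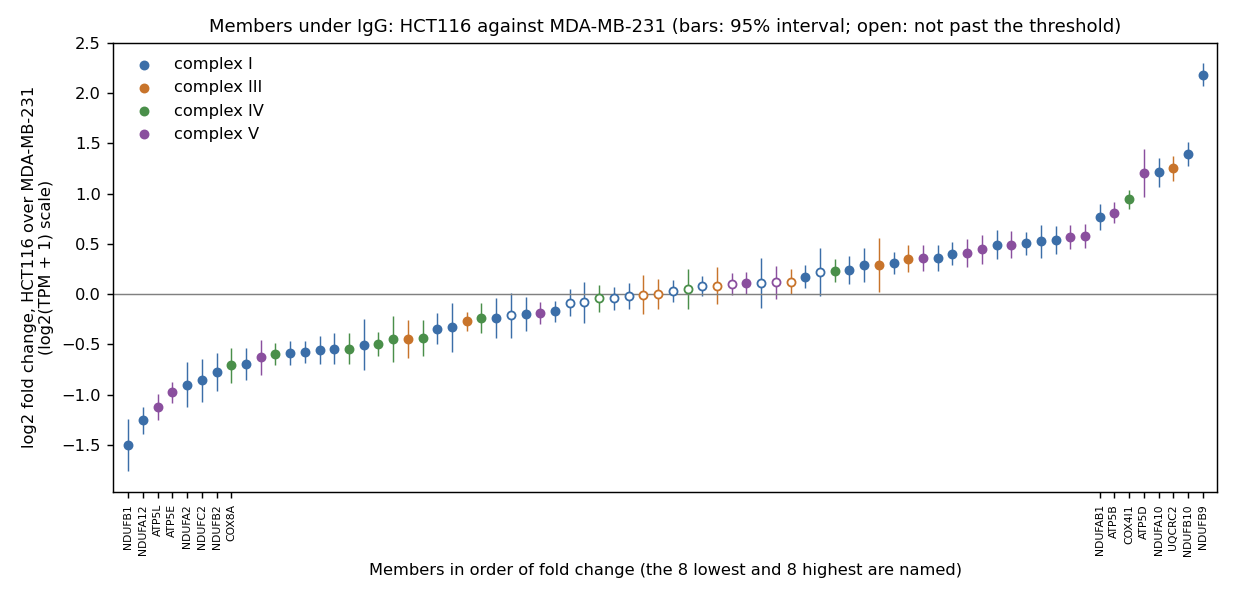
Difference between HCT116 and MDA-MB-231 under IgG (log2 scale of TPM + 1, y axis) for the 74 members of at least 10 TPM, in order of size (x axis, the 8 lowest and 8 highest named), with 95% intervals, colours for the complexes and open points where the adjusted p missed 0.05. The members run from NDUFB1 at -1.50 to NDUFB9 at 2.18, with all 4 complexes on both sides of 0.

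In complex I, NDUFB9, a membrane-arm subunit of the LYR family, was 619 and 610.0 TPM in HCT116 and 134 and 136 TPM in MDA-MB-231, a difference of 2.18 (SE 0.0512, limma adjusted p = 1.15e-11). No treatment brought the lines near each other: over all groups it was 555 to 619 TPM in HCT116 and 129 to 136 TPM in MDA-MB-231. NDUFB10 was 2.64-fold higher in HCT116 under IgG (1.40 on the log2 scale, limma adjusted p = 5.63e-10). Its H2O2 change in HCT116 minus that in MDA-MB-231, -0.52, was also the lowest among complex I members. In the other direction, NDUFB1 was 93.9 and 93.2 TPM in HCT116 and 283 and 250.5 TPM in MDA-MB-231, -1.50 (SE 0.116, limma adjusted p = 2.72e-07), and NDUFA12 was 124 and 126 TPM against 305 and 295 TPM, -1.25 (limma adjusted p = 6.11e-09). NDUFA4 differed by -0.57 (limma adjusted p = 6.85e-07). NDUFA4L2 was listed at 0 in both MDA-MB-231 IgG libraries.

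In complex III the core pair was unequal between lines. UQCRC2 was 214 and 212 TPM in HCT116 and 86.8 and 90.4 TPM in MDA-MB-231, 1.25 (SE 0.0577, limma adjusted p = 3.03e-09), and its partner UQCRC1 differed by 0.35 (limma adjusted p = 0.000226). UQCRQ at -0.44 and UQCRFS1 at -0.27 were lower in HCT116 (limma adjusted p = 0.000548 and 0.000135), UQCRHL was higher by 0.29 (0.0427) and UQCRH differed by 0.13 (0.0543). The UQCRHL call was lost without any 1 of 4 libraries, with adjusted p up to 0.315 without the second MDA-MB-231 IgG library, and under median-of-ratios scaling.

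In complex IV, COX4I1, COX5A and the low COX6B2 were higher in HCT116. COX4I1 was 1075 and 1042 TPM in HCT116 and 548 and 551 TPM in MDA-MB-231, 0.95 (SE 0.0424, limma adjusted p = 2.41e-09), while COX8A was 628 and 746 TPM against 1129 and 1109 TPM, -0.71 (limma adjusted p = 5.42e-06). COX7A2L at -0.59, COX7A2 at -0.54, COX6A1 at -0.50 and COX7B at -0.44 were lower in HCT116 (limma adjusted p from 5.57e-07 to 0.000392), and COX6B1 differed by -0.04 (limma adjusted p = 0.556). COX5A was 338 and 327 TPM against 285 and 280.1 TPM, 0.24 (limma adjusted p = 0.00149), a call lost under median-of-ratios scaling and named after its values were seen. COX6B2, at 1.12 and 1.81 TPM against 0.61 and 0.54 TPM, was higher by 0.63 (limma adjusted p = 0.00615), by 0.43 without the second HCT116 IgG library, and by 1.18 (0.0525) with a pseudocount of 0.1. It passed the filter on low values only through HCT116 libraries, the line where it was higher. COX7B2 was 5.48 and 2.52 TPM in MDA-MB-231 and listed at 0 in HCT116, so no fold is given.

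In complex V, subunits of the F1 head parted. ATP5D was 2.31-fold and ATP5B, the catalytic beta subunit, 1.76-fold higher in HCT116 (1.21 and 0.81 on the log2 scale, limma adjusted p = 9.12e-07 and 2.79e-08), while ATP5E, the epsilon subunit, was 808 and 783 TPM in HCT116 and 1603 and 1530.3 TPM in MDA-MB-231, -0.98 (SE 0.046, limma adjusted p = 3.67e-09). ATP5L, the g subunit of the membrane part, was 2.19-fold higher in MDA-MB-231 (-1.12, limma adjusted p = 8.58e-09). Of the c subunit genes, ATP5G1 was higher in HCT116 by 0.58, ATP5G3 by 0.45 and ATP5G2 by 0.11 (limma adjusted p = 1.12e-06, 7.37e-05 and 0.0477), with the ATP5G2 call lost under median-of-ratios scaling and without any 1 of 9 libraries (adjusted p up to 0.328, without the second HCT116 IgG library). The ATP5G1 share of their sum was 42.4% in MDA-MB-231 under IgG.

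Genes that work beside the subunits were followed by list. With H2O2 in HCT116, 2 of 4 complex II genes were lower (SDHB at -0.23 and SDHA at -0.15), as was CYC1 at -0.23 but not CYCS, the cytochrome c gene. Assembly factors were lower in 6 of 18 for complex I (ECSIT at -0.36 and NDUFAF3 at -0.34 lowest), 1 of 6 for III (MNF1 at -0.31, with TTC19 higher at 0.30), 7 of 24 for IV and 3 of 4 for V (TMEM70 at -0.25 and ATPAF1 at -0.23 lowest). Of all genes tested 17.5% were lower and 32.9% passed in either direction. In the complex I, III and IV assembly lists 33.3% passed in either direction, near that share. The largest change was that of SCO2, a copper chaperone of complex IV and a known p53 target: 25.7 and 21.1 TPM under IgG and 11.8 and 10.99 TPM under IgG+H2O2, a change of -0.97 (limma adjusted p = 0.00168). COA3 followed at -0.52 (limma adjusted p = 0.000376), and COX19 rose by 0.38 (limma adjusted p = 0.00819). For complex IV 29.2% of assembly factors were thus lower, where 17.5% of all genes were and 1 of 13 subunit rows was.

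Among 15 regulators of mitochondrial biogenesis in HCT116, 3 were lower and 2 higher with H2O2 (33.3%), near the 32.9% of all genes tested that passed. POLRMT, the mitochondrial RNA polymerase, fell by 0.43 on the log2 scale, and YY1 and PPRC1 were lower at -0.25 and -0.23. GABPB1, a subunit of the ETS factor GABP, and MYC were higher at 0.38 and 0.35 (limma adjusted p = 0.00214 and 0.000233). PPARGC1A, a coactivator of these genes, was listed at 0 in all HCT116 libraries. In MDA-MB-231 with H2O2, 0 genes of these 7 lists passed limma, and at an unadjusted p under 0.05 were 2 of 18 complex I, 2 of 6 complex III and 3 of 24 complex IV assembly factors, 5 of 15 regulators and none of the other lists. Of all genes tested there 2.66% passed, and 2326 of 13956 were at an unadjusted p under 0.05.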

How the data were processed

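RNA from the 2 cell lines was sequenced, and the authors deposited 1 table of TPM values for 23686 genes in 12 libraries, with 0 columns left unmatched to a library. Per the submitters' processing notes, the tools were bcl2fastq 2.20, STAR and RSEM and the build was hg19, with no roles or settings given. TPM keeps no depth, so the depth behind each value is unknown. Genes with at least 1 TPM in at least 2 of the 12 libraries (13956) were tested on log2(TPM + 1), which understates changes of low genes, with limma 3.58.1 in R 4.3.3 (trended moderated variance, 6 residual and 4.63 prior degrees of freedom, two-sided, Benjamini-Hochberg adjusted p under 0.05 over all genes kept), and 95% intervals come from that fit. All 6 groups shared 1 fit with 9 comparisons, no scaling beyond TPM and no covariate, and the code was tested on simulated data. Promoter sequences and current symbols came from RefSeq tables of GRCh38.p14, read in Python 3.11.15. Plots used matplotlib 3.10.9. The members and lists were chosen with earlier results of these data known. Members named are, per comparison and complex, the 2 highest and 2 lowest called fold changes (or the smallest p where none passed) and fixed isoform families. Others, such as NDUFS3, NDUFV2, NDUFA8, UQCRFS1 and ATP5A1, were named after their values were seen. 1 member's own values are not reported here. Outside genes are the 2 most changed each way per list. Alternatives were a pseudocount of 0.1, no filter, a mean of at least 5 TPM, median-of-ratios scaling, quantile normalization, each line alone, a replicate block and leaving out each library.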

Additional observations from a re-analysis of the deposited data

Results flagged for a closer look

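For 8 members the H2O2 change differed between the lines by the interaction test in limma, each lower in HCT116 than in MDA-MB-231 on the log2 scale. The differences were -0.522 for NDUFB10, -0.445 for ATP5G1, -0.344 for UQCR10, -0.333 for NDUFA8, -0.331 for ATP5G3, -0.288 for NDUFA6, -0.259 for NDUFV2 and -0.246 for NDUFS3, with adjusted p from 0.00148 to 0.0429. NDUFB10, ATP5G1 and NDUFA8 passed in every setting tried, and the other 5 did not. The members' share called lower, 10.1%, was close to the 9.72% of all genes tested and below the 19.9% of genes with a mean of at least 60 TPM. Groups of 2 libraries are too small for a check of single libraries that stand apart.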

How the results depend on the processing

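Of the counts of members called, those for H2O2 in MDA-MB-231, for the antibody under H2O2 in either line and for its difference between lines were 0 in every setting run, single libraries left out included. For H2O2 in HCT116 (24), the count was 12 with each line fitted alone and 12 to 27 with 1 library left out. For anti-Hsp60N+H2O2 against IgG in HCT116 (29) it was 19 under quantile normalization, 17 with each line alone and 16 to 30 with 1 library left out, and in MDA-MB-231 (0) it was 1 under median-of-ratios scaling, 1 under quantile normalization and 0 to 1 with 1 library left out. For the difference of H2O2 changes (8) it was 5 with no filter, 3 under median-of-ratios scaling, 5 under quantile normalization and 4 to 13 with 1 library left out, and between the lines (60) it was 57 to 60 with 1 library left out and 56 to 60 in the other settings. UQCRH with H2O2 in MDA-MB-231 changed sign, ranging from -0.022 without the second IgG library to 0.143 without the first. The cause of these shifts was not tested. Same-numbered libraries showed little shared deviation between groups of a line, with correlations of -0.127 to 0.164. These values cannot show whether the numbers mark sets that were handled together. With the replicate block the count for H2O2 in HCT116 was 26 (23 shared), for anti-Hsp60N+H2O2 against IgG in HCT116 29, for the difference of H2O2 changes 9 and between lines 56. With the numbers of the HCT116 IgG libraries crossed, chosen after seeing the data, it was 29 for H2O2 in HCT116. Depth is unknown, so no counting error could be given.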
